A study of Mus musculus with 6 samples.

Results

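The genes of protein folding, translocation and waste disposal in the endoplasmic reticulum (ER) were followed in mouse MTO samples of 2 genotypes, one carrying the control guide sgC and the other carrying sgPrkci/Prkcz, guides against both atypical protein kinase C genes. The list names 36 genes, of which 35 were among the 20756 genes of the deposited table and all 35 passed the filter on low values that left 12207 genes to test. Derl3 was not analysed here. Each genotype had 3 samples, all of strain C57BL/6, grown in a medium with 10 mM HEPES and EGF at 50 ng/ml, with no treatment. The series asks what loss of these kinases in epithelium does in mesenchymal colorectal cancer. The labels do not spell out MTO or say whether a genotype was 1 clone. The design text speaks of tumours and of biological replicates without naming separate cultures, whereas the deposited values carry an in vitro mark and the protocol also covers injection into mice. The p-values thus reflect how far these samples differ among themselves, and part of that may be technical.

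The ER is where secreted and membrane proteins enter the secretory route: they pass through the Sec61 channel, lose their signal peptide, and are folded by the chaperones BiP (Hspa5) and Grp94 (Hsp90b1), by disulfide isomerases and by the lectin chaperones calnexin and calreticulin. Proteins that fail to fold are pulled back to the cytosol and destroyed, a route called ER-associated degradation (ERAD). Unfolded protein in the ER wakes the sensors IRE1 (Ern1), PERK (Eif2ak3) and ATF6, which start the unfolded protein response. IRE1 splices the Xbp1 mRNA, ATF6 is cut into a transcription factor, and PERK slows translation and raises ATF4, so the chaperone genes serve as readouts of the IRE1 and ATF6 arms. In gut epithelium the response is known for its part in secretory cells and in renewal.

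Transcripts were counted as 3′ tags, so a level in CPM (reads per 1000000 reads assigned to genes) does not scale with transcript length, and Xbp1 splicing is not read. Depth followed genotype, at 2821908 to 3048170 reads for sgC and 1543826 to 1808292 for sgPrkci/Prkcz. Of the guide targets, Prkci stood at 46.6, 54.5 and 63.8 CPM in sgC replicates 1 to 3 against 55.1, 54.2 and 53.8 CPM in sgPrkci/Prkcz, giving a log2 fold change of -0.0041 (limma, adjusted p = 0.986). Prkcz had 19, 17 and 14 reads against 7, 3 and 1 (log2 fold change -1.24; limma, adjusted p = 0.00967), called in 15 of the 19 settings that tested it. A 3′ tag does not check an edited exon. All 8 epithelial markers were expressed in every library, with a summed level of 3575 to 4223 CPM. Of fibroblast markers 6 of 7 were in the table, at a sum of 0.328 to 2.35 CPM, too few reads to compare the genotypes. Of endothelial markers 4 of 5 were in the table, with a sum of at most 0.670 CPM and Pecam1 and Cdh5 at 0 in every library. Of 7 leukocyte markers 3 were in the table, at a sum of 5.25 to 14.3 CPM that was mostly Cd68.

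Promoters are shown for 6 members because they carry the ER stress response element (ERSE), the site through which ATF6 and XBP1 act on chaperone genes. The motif searched was CCAAT, 9 bases of any kind, then CCACG, on both strands, in the 300 bases that run from 250 before to 50 from the start site onward (RefSeq, GRCm38.p6). Of the tested members 28 had a promoter in that table, and 8 of these held an ERSE: Hspa5, Hsp90b1, Calr, Canx, Pdia6, Dnajc3, Creld2 and Syvn1. Among all 27025 genes with a promoter, 37 held one, or 0.137%. The related ERSE-II (ATTGG, 1 base of any kind, CCACG) was found in Herpud1 and Dnajb11 and in 0.0444% of all genes, and the UPRE (TGACG followed by TGG or TGA) in Hspa5 and in 1.22% of all genes. The sequences read 5′ to 3′ along the gene, and the capitals mark the ERSE, which in Hsp90b1 occurs on both strands and in Calr on the reverse strand. A match is a run of letters and not a shown binding site.
Hspa5, chr2:34771840-34772139, plus strand: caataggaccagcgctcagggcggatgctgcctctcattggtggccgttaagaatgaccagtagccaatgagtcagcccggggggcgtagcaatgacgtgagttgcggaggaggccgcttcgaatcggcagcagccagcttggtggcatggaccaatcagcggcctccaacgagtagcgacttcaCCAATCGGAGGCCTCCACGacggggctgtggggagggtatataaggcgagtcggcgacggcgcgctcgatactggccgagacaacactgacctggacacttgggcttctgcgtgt
Hsp90b1, chr10:86705395-86705694, minus strand: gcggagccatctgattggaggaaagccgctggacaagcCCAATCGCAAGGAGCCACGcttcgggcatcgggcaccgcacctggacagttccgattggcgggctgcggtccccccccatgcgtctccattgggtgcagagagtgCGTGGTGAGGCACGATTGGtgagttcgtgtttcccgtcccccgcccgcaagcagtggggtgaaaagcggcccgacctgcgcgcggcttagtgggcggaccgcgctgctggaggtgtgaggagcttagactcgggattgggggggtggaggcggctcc
Calr, chr8:84846882-84847181, minus strand: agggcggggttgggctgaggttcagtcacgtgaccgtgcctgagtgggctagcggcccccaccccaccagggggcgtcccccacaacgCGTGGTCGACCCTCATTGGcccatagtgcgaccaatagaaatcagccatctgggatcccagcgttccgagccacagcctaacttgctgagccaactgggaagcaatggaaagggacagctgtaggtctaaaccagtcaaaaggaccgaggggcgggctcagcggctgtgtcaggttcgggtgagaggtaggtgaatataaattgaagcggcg
Canx, chr11:50325624-50325923, minus strand: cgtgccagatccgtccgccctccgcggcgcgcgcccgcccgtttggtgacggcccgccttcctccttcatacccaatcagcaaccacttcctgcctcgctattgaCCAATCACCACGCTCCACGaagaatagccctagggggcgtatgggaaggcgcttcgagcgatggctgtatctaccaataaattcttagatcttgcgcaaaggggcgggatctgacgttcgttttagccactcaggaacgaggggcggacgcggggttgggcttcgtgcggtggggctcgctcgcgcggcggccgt
Pdia6, chr12:17266339-17266638, plus strand: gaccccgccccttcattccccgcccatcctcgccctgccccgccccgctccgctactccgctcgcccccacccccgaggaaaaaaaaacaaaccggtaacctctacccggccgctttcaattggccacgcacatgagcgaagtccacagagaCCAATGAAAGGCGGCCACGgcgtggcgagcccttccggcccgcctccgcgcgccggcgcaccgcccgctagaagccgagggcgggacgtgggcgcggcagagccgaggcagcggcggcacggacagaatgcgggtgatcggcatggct
Dnajc3, chr14:118937682-118937981, plus strand: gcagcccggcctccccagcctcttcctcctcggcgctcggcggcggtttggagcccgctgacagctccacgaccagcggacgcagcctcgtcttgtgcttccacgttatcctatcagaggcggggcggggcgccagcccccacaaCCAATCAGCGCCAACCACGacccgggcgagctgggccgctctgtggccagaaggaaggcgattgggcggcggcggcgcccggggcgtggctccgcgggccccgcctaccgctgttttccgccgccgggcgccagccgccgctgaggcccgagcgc

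Most ER genes differed little between the genotypes. The calls went in both directions, as they did over all genes, and the split depended on the scaling. With limma 10 of 35 tested members changed, 3 up and 7 down, against 35.2% of all tested genes, 11.4% up and 23.8% down. Dnajc10, Xbp1 and Pdia6 rose, and Derl1, Derl2, Hspa5, P4hb, Spcs2, Canx and Hsp90b1 fell. The median log2 fold change of the members was -0.11 and that of all tested genes -0.17. Of the members 27 moved by less than 0.3 on the log2 scale (77.1%), as did 43.5% of all tested genes. Restricted to a mean of at least 50 CPM, where noise is smaller, these were 17 of 23 members (73.9%) and 54.4% of 3475 genes. The 10 changed members all lie above that level, where 49.8% of genes were called. The 3 libraries of one genotype lay wholly above or below the other for 13 members, 4 up and 9 down, against 45.0% of all genes (15.0% up, 30.0% down).

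Most of the falls were small and rested on how the libraries were scaled. Setting the median change of all genes to 0, called centring here, adds 0.17 to each log2 fold change. After centring 6 members rose and 1 fell, against 31.8% of all genes called, 17.4% up and 14.4% down. Calr, Sec61b and Ssr3 joined the risen, and of the fallen Derl1 kept its call. The edgeR test on recovered reads gave 6 up and 2 down, Derl1 and Derl2, against 32.4% of all genes, 16.4% up and 16.0% down. DESeq2 gave 5 up and 1 down, against 22.3% of all genes, 12.7% up and 9.67% down. With limma, removing the median of each chromosome gave 6 up, Canx among them, against 29.2% of all genes called, 16.1% up and 13.1% down. It gave 0 down, also at an unadjusted p under 0.05, whereas edgeR without that removal gave the 2 falls above. Dnajc10, Xbp1 and Pdia6 were called higher under each of these. In bulk samples fewer cells of a type and less RNA per cell cannot be told apart.

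**Figure D1:**
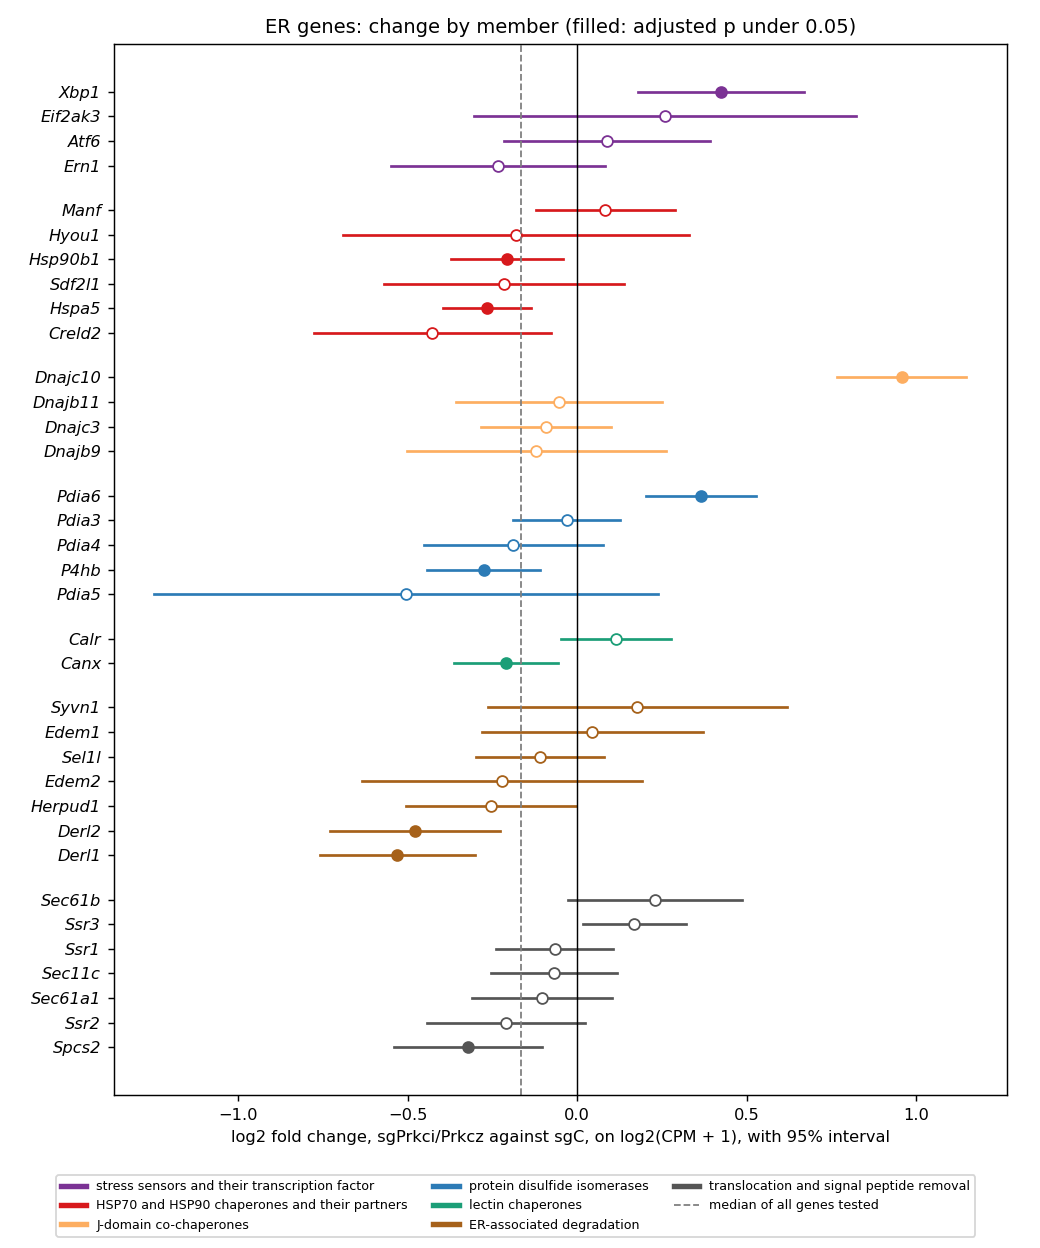
Change of each tested ER gene in blocks by role, as the log2 fold change of sgPrkci/Prkcz against sgC on log2(CPM + 1), with 95% intervals from limma (n = 3 per genotype). Filled points passed the threshold; Dnajc10 at 0.96 stands to the right of the others, and most intervals cross 0 or the dashed median of all genes at -0.17. After centring, Derl1 was the one fall still called.

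Among the sensors and their transcription factor, Xbp1 mRNA rose and the sensor genes did not pass the test. Xbp1 (ENSMUSG00000020484, chromosome 11, 5520659 to 5525893), the factor made by IRE1 splicing, stood at 57.3, 66.3 and 71.6 CPM in sgC replicates 1 to 3 and at 80.1, 90.7 and 91.3 CPM in sgPrkci/Prkcz replicates 1 to 3. Every sgPrkci/Prkcz library lay above every sgC library. The mean went from 65.1 ± 7.20 to 87.4 ± 6.31 CPM (SD, n = 3 each), giving a log2 fold change of 0.42 with a 95% interval of 0.18 to 0.67 (limma, Benjamini-Hochberg adjusted p = 0.00653). The rise went against its surroundings: the 67 tested genes that start within 5000000 bases had a median log2 fold change of -0.47, and the whole of chromosome 11 one of -0.44. Of 20 settings 19 called it, and limma without the variance trend did not.

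Atf6 (chromosome 1, 170704674 to 170867771), whose product is cleaved in the Golgi, had 50.3, 42.6 and 51.4 CPM in sgC and 64.2, 41.5 and 49.9 CPM in sgPrkci/Prkcz. The groups overlapped, and the log2 fold change of 0.09 had a 95% interval of -0.22 to 0.39 (limma, adjusted p = 0.686). Ern1 (chromosome 11, 106394650 to 106487852), which encodes IRE1, had 38.2, 38.7 and 46.1 CPM against 40.3, 29.3 and 35, also overlapping (log2 fold change -0.23, interval -0.55 to 0.08; limma, adjusted p = 0.253). Eif2ak3 (chromosome 6, 70844515 to 70905245), which encodes PERK, was thin, with 18, 24 and 31 reads in sgC against 24, 13 and 15 reads in sgPrkci/Prkcz. Its levels of 6.03, 7.87 and 11 CPM against 13.6, 7.19 and 9.72 gave an interval of -0.30 to 0.82, which does not exclude a rise of 1.5-fold (0.58 on the log2 scale).

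Of the chaperones built around BiP and Grp94, Hspa5 and Hsp90b1 fell slightly. Hspa5 (ENSMUSG00000026864, chromosome 2, 34771970 to 34777547), the HSP70 of the ER, stood at 1841, 2062 and 1979 CPM in sgC and 1586, 1667 and 1632 CPM in sgPrkci/Prkcz. The groups did not overlap, and the mean went from 1960.4 ± 112 to 1628 ± 40.7 CPM, giving a log2 fold change of -0.27 with a 95% interval of -0.40 to -0.14 (limma, adjusted p = 0.00163). After centring it was -0.10 (limma, adjusted p = 0.247) and with edgeR -0.13 (adjusted p = 0.194), so the call was lost. The 110 tested genes that start within 5000000 bases of Hspa5 had a median of -0.19. Hsp90b1 (chromosome 10, 86690209 to 86705509), the HSP90 of the ER, stood at 746, 939 and 901 CPM against 736, 792 and 702 (log2 fold change -0.21; limma, adjusted p = 0.0440). Its groups overlapped through sgC replicate 1, 7 of 20 settings called it, and with chromosome medians removed its sign turned (0.04). The 49 tested neighbours of Hsp90b1 had a median of -0.41.

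The partners of BiP did not pass the test. Creld2, an ERSE gene of the response, came nearest, at 30.5, 43.6 and 40.8 CPM in sgC against 23.3, 27.7 and 33.7 CPM in sgPrkci/Prkcz (log2 fold change -0.43; limma, adjusted p = 0.0513). The groups overlapped, with sgC replicate 1 below sgPrkci/Prkcz replicate 3. It was called lower without the first of these (-0.58; limma, adjusted p = 0.0105) or without the second (-0.56; limma, adjusted p = 0.0160), and leaving out any other library gave -0.42 to -0.30, not called. Manf, a secreted folding factor induced by ER stress, had 204, 260.2 and 272 CPM against 234, 283 and 260.4, a log2 fold change of 0.08 with an interval of -0.12 to 0.29. Rbm15b on the same strand (503 reads) and Dcaf1 on the opposite strand (967 reads) overlap Manf (3496 reads), and neither was called. Sdf2l1, which keeps clients soluble with BiP, was at 23.8 to 30.8 CPM in sgC and 22.0 to 24.3 in sgPrkci/Prkcz (-0.22). Hyou1, the exchange factor for BiP, ran from 9.39 to 18.8 CPM in sgC and from 9.95 to 16.5 in sgPrkci/Prkcz (-0.18), on 18 to 53 reads a library.

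The J-domain co-chaperone Dnajc10 had the largest change of all tested members, and the others of its group lay near 0. Dnajc10 (ENSMUSG00000027006, chromosome 2, 80315466 to 80354043), which encodes ERdj5, a disulfide reductase that opens misfolded proteins for ERAD, stood at 124, 133 and 127 CPM in sgC and 255, 267 and 227 CPM in sgPrkci/Prkcz. The groups were far apart. The mean rose from 128 ± 4.62 CPM to 249.7 ± 20.1 CPM, with a log2 fold change of 0.96 and a 95% interval of 0.77 to 1.15 (limma, adjusted p = 2.96e-09). All 20 settings called it, at 0.90 to 1.16. Its 33 tested neighbours within 5000000 bases had a median log2 fold change of -0.19, and its RefSeq promoter held none of the motifs searched.

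Dnajb9 (ERdj4), a target of spliced XBP1, had 17.8, 24.3 and 23.0 CPM in sgC and 19.9, 20.5 and 18.8 CPM in sgPrkci/Prkcz (log2 fold change -0.12, interval -0.50 to 0.26). The sgPrkci/Prkcz libraries fell inside the sgC range. Dnajb11 (ERdj3), which hands clients to BiP, had 33.9, 46.3 and 46.1 CPM against 39.8, 40.9 and 39.5 (-0.05). Dnajc3 (p58IPK), a co-chaperone that also restrains PERK, had 153, 166 and 153 CPM against 145, 149 and 148 CPM, a log2 fold change of -0.09 with an interval of -0.28 to 0.10. It is an ERSE gene whose groups did not overlap, yet the difference did not pass the test (limma, adjusted p = 0.477).

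**Figure D2:**
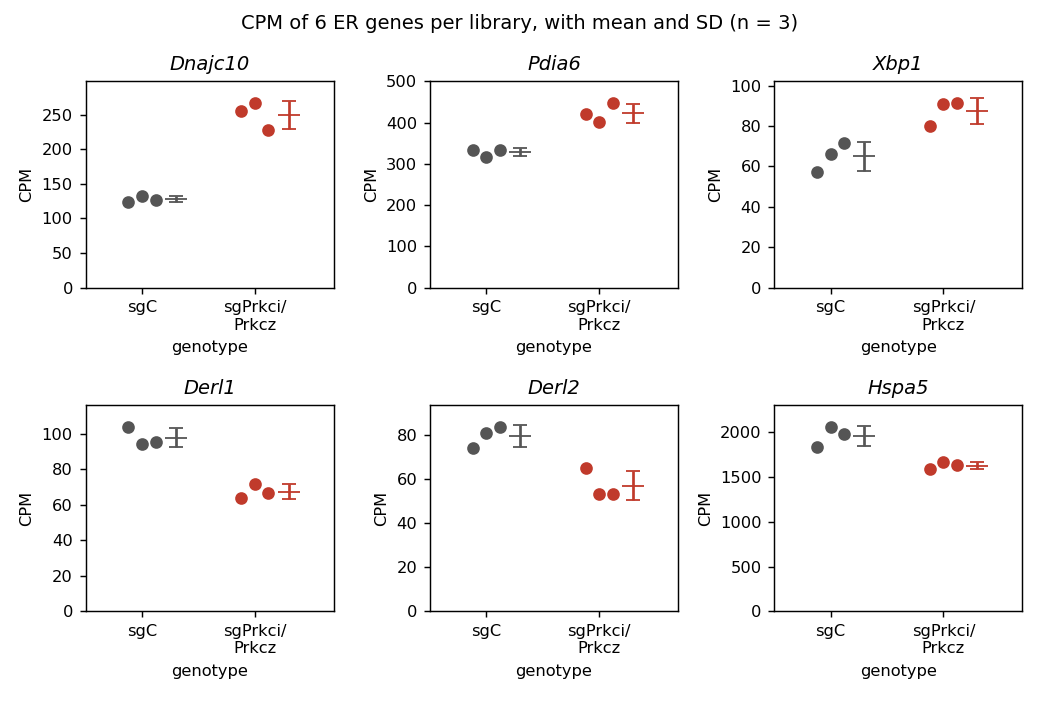
CPM of Dnajc10, Pdia6, Xbp1, Derl1, Derl2 and Hspa5 in each library, with the mean and SD of 3 libraries per genotype beside the points and every axis starting at 0. The groups do not overlap in any of the 6 panels, and Dnajc10 shows the widest gap (128 against 249.7 CPM); the fall of Hspa5 was not called after centring, nor was that of Derl2.

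The disulfide isomerases split. Pdia6 (ENSMUSG00000020571, chromosome 12, 17266545 to 17284770), an ERSE gene whose product also binds the IRE1 sensor, stood at 333, 316 and 333 CPM in sgC and 420.4, 400.4 and 447 CPM in sgPrkci/Prkcz. All sgPrkci/Prkcz libraries were above all sgC libraries, and the mean went from 328 ± 9.77 to 423 ± 23.4 CPM. The log2 fold change was 0.37 with a 95% interval of 0.20 to 0.53 (limma, adjusted p = 6.55e-04). Pdia6 was called in 19 of 20 settings, and not in limma without the variance trend (adjusted p = 0.0613). P4hb (chromosome 11, 120560298 to 120573253), the classical isomerase PDI, had 614, 597 and 505 CPM against 501, 455 and 457, a log2 fold change of -0.28 (limma, adjusted p = 0.00913). Its groups were separated by the small gap between sgC replicate 3 and sgPrkci/Prkcz replicate 1. The 124 tested neighbours of P4hb had a median of -0.42, and after centring its value was -0.11 (limma, adjusted p = 0.329), while with chromosome medians removed it turned to 0.17.

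Pdia3 (ERp57), the isomerase that works with calnexin and calreticulin, stood at 395, 405 and 383 CPM in sgC and 392, 379.9 and 385 in sgPrkci/Prkcz (log2 fold change -0.03, interval -0.19 to 0.13). Pdia4 (ERp72) had 56.0, 56.4 and 58.1 CPM against 55.1, 49.2 and 45.3 (-0.19; limma, adjusted p = 0.273). The Pdia4 groups did not overlap, but sgPrkci/Prkcz replicate 1 came close to the sgC values. Pdia5 rested on 3 to 33 reads a library and gave an interval of -1.25 to 0.24.

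Of the lectin chaperones, which hold glycoproteins until they fold, Canx fell and Calr did not pass the test, and both results depended on the scaling. Canx (chromosome 11, 50293961 to 50325673), calnexin, had 488, 501 and 505 CPM in sgC and 439, 438 and 415 CPM in sgPrkci/Prkcz, with no overlap (log2 fold change -0.21, interval -0.36 to -0.06; limma, adjusted p = 0.0298). Its 69 tested neighbours had a median of -0.48, the call did not survive centring (-0.04), and with chromosome medians removed it was called in the other direction (0.23; limma, adjusted p = 0.0170). Calr (chromosome 8, 84841850 to 84846934), calreticulin, had 430.5, 474 and 482 CPM against 465, 506 and 531, overlapping, with a log2 fold change of 0.11 and an interval of -0.05 to 0.28 (limma, adjusted p = 0.276). After centring it was called higher (0.28; limma, adjusted p = 0.00674), as it was with chromosome medians removed (0.51; limma, adjusted p = 8.99e-06).

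The derlins of ERAD fell. Derl1 (ENSMUSG00000022365, chromosome 15, 57869502 to 57892448), part of the channel through which misfolded proteins leave the ER, stood at 104, 94.2 and 95.3 CPM in sgC and 63.6, 71.9 and 66.7 CPM in sgPrkci/Prkcz. The groups were well separated. Its mean went down from 97.8 ± 5.34 CPM to 67.4 ± 4.18 CPM, with a log2 fold change of -0.53 and a 95% interval of -0.76 to -0.30 (limma, adjusted p = 4.77e-04). After centring it was -0.37 (limma, adjusted p = 0.0128), and with chromosome medians removed -0.14 and not called. The other 19 of 20 settings called it, edgeR (-0.40; adjusted p = 0.00631) and DESeq2 (-0.39; adjusted p = 0.0409) among them. Its 35 tested neighbours had a median of -0.46.

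Derl2 (ENSMUSG00000018442, chromosome 11, 71007164 to 71019841), its paralog, had 74.1, 81.0 and 83.6 CPM in sgC and 64.8, 53.1 and 53.1 CPM in sgPrkci/Prkcz. No libraries of the groups overlapped, and the log2 fold change was -0.48 with an interval of -0.73 to -0.23 (limma, adjusted p = 0.00300). After centring it was -0.31 (limma, adjusted p = 0.0509), with chromosome medians removed -0.036 (limma, adjusted p = 0.863), and the 131 tested neighbours had a median of -0.36. Mis12, annotated on the opposite strand across Derl2, had 812 reads against 996 of Derl2 over the 6 libraries and also fell (-0.80). The strand setting of the counting is not given in the sources used here, so reads of the pair cannot be told apart.

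The ubiquitin ligase complex at the centre of ERAD and its mannosidases did not pass the test. Sel1l, the adaptor of the ligase, had 166, 163 and 162 CPM in sgC and 159, 149 and 146 CPM in sgPrkci/Prkcz, giving -0.11 on the log2 scale with an interval of -0.30 to 0.08. The groups stood apart by a few CPM. Syvn1, the ligase HRD1 and an ERSE gene, had 12.7, 21.7 and 23.4 CPM against 25.0, 22.7 and 16.8 (0.18), and Mrpl49 overlaps it on the opposite strand with 395 reads to its 281. Herpud1, which assembles the complex and is induced by ER stress, had 139, 178 and 171 CPM against 113, 132 and 167 (-0.25; limma, adjusted p = 0.108). Its groups overlapped, and it was called lower without sgC replicate 1 (-0.36; limma, adjusted p = 0.0141) or without sgPrkci/Prkcz replicate 3 (-0.40; limma, adjusted p = 0.00779). Leaving out any other library gave -0.24 to -0.12, not called, with the smallest value without sgPrkci/Prkcz replicate 1. Edem1, which marks glycoproteins for disposal, had 27.8 to 41.8 CPM in sgC and 34.3 to 37.1 in sgPrkci/Prkcz (0.04), and Edem2, which makes the first cut in the glycan, 15.4 to 19.7 and 13.6 to 16.8 (-0.22).

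Of the translocation genes, Spcs2 fell and the channel subunits did not pass the test. Spcs2 (chromosome 7, 99837569 to 99863462), a subunit of the signal peptidase, had 206, 260.2 and 257 CPM in sgC and 169, 184 and 226 CPM in sgPrkci/Prkcz (log2 fold change -0.32; limma, adjusted p = 0.0189). Its groups overlapped, 9 of 20 settings called it, and after centring its value was -0.16 (limma, adjusted p = 0.282). The 77 tested neighbours of Spcs2 had a median of -0.43. The catalytic subunit Sec11c had 239 to 289.6 CPM against 234 to 266, a log2 fold change of -0.07 with an interval of -0.25 to 0.12. Sec61a1, the pore of the channel, had 179, 150.3 and 153 CPM against 166, 142 and 141 (-0.10, interval -0.31 to 0.10). Sec61b (chromosome 4, 47474658 to 47483242), the tail-anchored subunit beside it, had 58.7, 71.8 and 85.0 CPM in sgC and 86.9, 84.6 and 79.0 CPM in sgPrkci/Prkcz. Only sgC replicate 3 reached the sgPrkci/Prkcz range, and the log2 fold change was 0.23 (limma, adjusted p = 0.164). After centring it was called higher (0.39; limma, adjusted p = 0.0164).

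The genes of the translocon-associated proteins, which help signal peptides open the channel, did not pass the test before centring. Ssr3 had 535, 538 and 530.5 CPM in sgC and 585, 577 and 642 CPM in sgPrkci/Prkcz, without overlap (log2 fold change 0.17; limma, adjusted p = 0.0792). After centring it was called higher (0.33; limma, adjusted p = 8.14e-04). Ssr2 had 82.8, 90.2 and 78.3 CPM against 69.3, 71.3 and 75.8, also without overlap but in the other direction (-0.21; limma, adjusted p = 0.155). After centring Ssr2 was at -0.046 (limma, adjusted p = 0.801), and 0 of 20 settings called it. Ssr1 had 251 to 279 CPM in sgC and 244 to 259 in sgPrkci/Prkcz (-0.07). Of the 25 members that were not called, 19 had a 95% interval inside a change of 1.5-fold either way, and Eif2ak3, Hyou1, Creld2, Pdia5, Syvn1 and Edem2 did not.

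The calls among the genes that share the ERSE depended on the scaling. Of the 8, Pdia6 rose, Hspa5, Hsp90b1 and Canx fell, and Calr, Dnajc3, Creld2 and Syvn1 did not pass the test. Of all genes 35.2% were called, 11.4% up and 23.8% down. After centring the 3 falls lost their calls and Calr gained a call, which left Pdia6 and Calr, each higher. Over all genes 17.4% were then called up and 14.4% down. With chromosome medians removed Pdia6, Calr and Canx were called higher, against 16.1% of all genes up and 13.1% down. Without such rescaling the log2 fold changes of the 8 ran from -0.43 to 0.37 with a median of -0.15. The 4 called members with a change of at least 0.4, Dnajc10, Derl1, Derl2 and Xbp1, are not among them, although Derl1 had no promoter in the table.

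**Figure D3:**
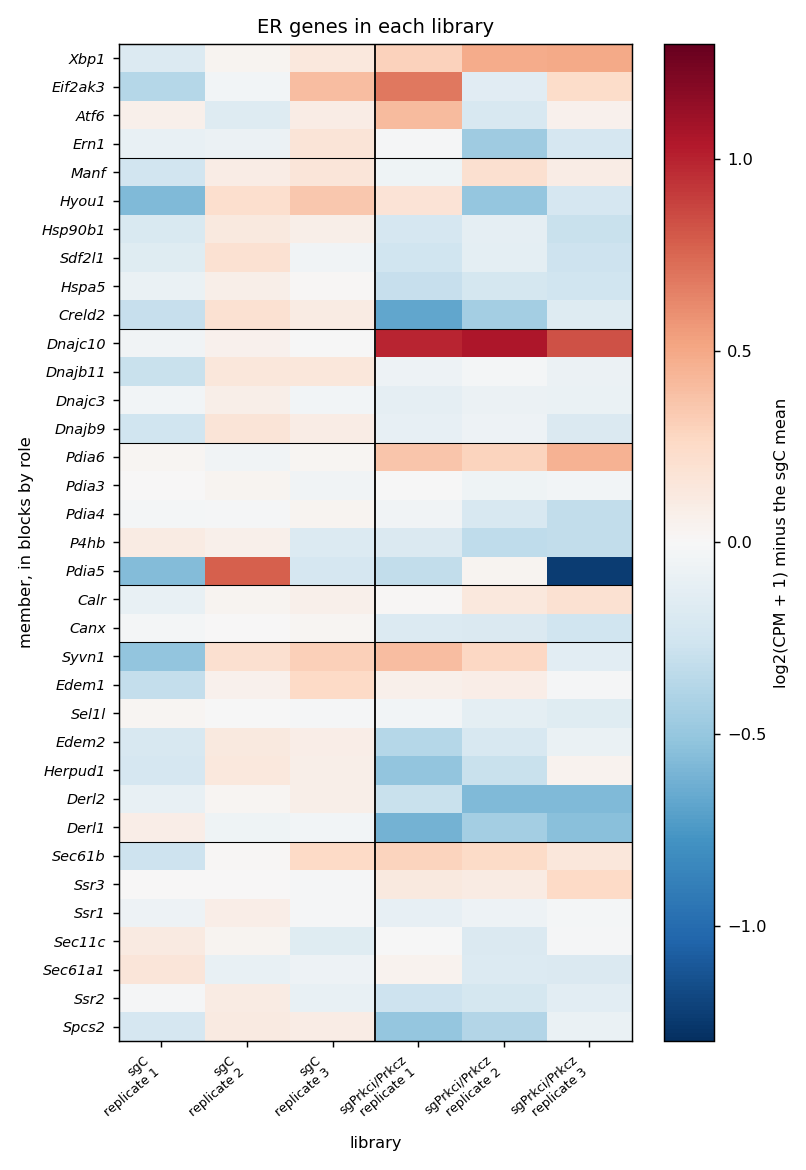
Level of each tested ER gene in each of the 6 libraries, as log2(CPM + 1) minus the mean of the 3 sgC libraries, in blocks by role. The column of sgC replicate 1 is blue for most chaperone and ERAD genes, Dnajc10 is dark red in all 3 sgPrkci/Prkcz libraries, the dark cells of Pdia5 rest on 3 to 33 reads, and the median change of all genes between the genotypes was -0.17.

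Within sgC, the ER genes were lower in replicate 1 than in its companions. Of 35 members 25 had their lowest sgC value there (71.4%), as had 37.6% of all tested genes, while 4 had it in replicate 2 and 6 in replicate 3. The mean over members of log2(CPM + 1), relative to the sgC mean, was -0.14 in replicate 1, 0.08 in replicate 2 and 0.06 in replicate 3, against -0.04, -0.08 and -0.09 in sgPrkci/Prkcz replicates 1 to 3. For the BiP and Grp94 group it was -0.26, 0.15 and 0.11 for sgC against -0.22, -0.20 and -0.18 for sgPrkci/Prkcz. Over all tested genes it was -0.016, -0.0015 and 0.017 for sgC against -0.18, -0.18 and -0.16 for sgPrkci/Prkcz. In that group sgC replicate 1 thus lay with the sgPrkci/Prkcz libraries on this scale. Those libraries lay near their all-gene means, whereas sgC replicate 1 lay below its own. The same library held the plasma cell genes Igkc at 24.5 CPM and Jchain at 12.1 CPM, against 1.64 and 0.328 CPM in replicate 2 and 4.61 and 3.54 CPM in replicate 3, with both at 0 in sgPrkci/Prkcz. Over all 5 plasma cell markers in the table (of 7) the sum was 231 to 260.1 CPM in sgC and 282 to 306 in sgPrkci/Prkcz, most of it Sdc1 and Prdm1, which epithelium also expresses. Goblet and Paneth cell markers (7 of 8 in the table) summed to 6.56 to 20.8 CPM in sgC, highest in replicate 1, and 59.6 to 79.1 in sgPrkci/Prkcz, most of it Spink4 and Agr2. Other markers of that list did not share the direction of the sum: Zg16 and Lyz1 had reads in sgC replicates 1 and 3 and were at 0 in sgPrkci/Prkcz, and Muc2 was at 3.35, 0.656 and 1.42 CPM in sgC against 0.568, 1.11 and 0 CPM. The part of such cells in the ER values was not tested. Without sgC replicate 1 the members called were 3 up and 9 down, against 32.4% of all genes, 10.9% up and 21.6% down, with Creld2 and Herpud1 added, and the median of the members was -0.20.

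Among the genes listed as outputs of the PERK arm 9 of 15 tested fell, some by more than any ER member. Whether the lists differ was not tested, and PERK activity was not measured. Of all genes 23.8% fell. In this list, with limma, 0 rose (edgeR called 1 higher, and limma had 0 higher at an unadjusted p under 0.05). Atf4, the transcription factor of this arm, had 1022, 1158 and 895 CPM in sgC and 362, 339 and 425 CPM in sgPrkci/Prkcz (log2 fold change -1.45; limma, adjusted p = 3.10e-12). Chac1 (-2.99), a glutathione-degrading enzyme, Trib3 (-2.29), a pseudokinase that feeds back on ATF4, and Asns (-1.13), asparagine synthetase, fell too. Ddit3, which encodes CHOP and is classically raised by ER stress, had 86.5, 73.2 and 68.0 CPM against 60.2, 75.8 and 74.5 and did not pass the test (-0.11; limma, adjusted p = 0.527). After centring 6 fell and 2 rose, against 14.4% and 17.4% of all genes.

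Some of the other folding and redox genes changed by more than any member did. Of all tested genes 10.3% had a log2 fold change of at least 1 in either direction. The counts below stand beside 35.2% of all genes called, 11.4% up and 23.8% down, or 31.8% after centring, 17.4% up and 14.4% down, and the lists for translocation and N-glycosylation lie near that share. Of 34 tested folding and redox genes 3 rose and 13 fell (4 and 7 after centring), with a median log2 fold change of -0.27. Qsox1, a sulfhydryl oxidase of the Golgi, rose from 33.5 ± 2.95 to 110.2 ± 13.2 CPM (1.69), and Ero1l, the oxidase that recharges PDI, from 733 ± 25.9 to 1216 ± 45.7 CPM (0.73; limma, adjusted p = 1.38e-09). The prolyl isomerase Ppic (-1.45) and the chaperone Cnpy2 (-0.71) fell. Of 33 other ERAD genes 3 rose and 11 fell (4 and 5 after centring; median -0.19). Edem3, a mannosidase beside Edem1 and Edem2, rose from 39.2 ± 8.06 to 63.0 ± 2.47 CPM (0.69; limma, adjusted p = 4.02e-04), and the selenoprotein Selenok rose (0.57) while Selenos, which recruits the p97 ATPase, fell (-0.68).

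Among 21 other translocation genes 2 rose and 5 fell (3 and 1 after centring; median -0.07), with Tram1, a helper of the channel, up (0.29) and the signal recognition genes Srp19 (-0.58), Srprb (-0.54) and Srp68 (-0.35) down. Srprb and Srp68 were no longer called after centring (limma, adjusted p = 0.0823 and 0.250). Of 25 N-glycosylation genes 2 rose and 6 fell (3 and 6; median -0.20). Ost4, the small subunit of the oligosaccharyltransferase, rose from 19.0 ± 2.0 to 46.4 ± 10.2 CPM (1.23), while Tusc3 (-0.79) and Krtcap2 (-0.49), further subunits of that enzyme, and the glucosyltransferase Alg8 (-1.06) fell. Of 18 other regulators of the response 1 rose and 2 fell (2 and 2; median -0.12): Creb3l2, an ATF6-like factor, rose (0.85), and the ligase Rtcb (-0.64), which joins the ends of spliced Xbp1, and Mbtps1 (-0.57), the protease that makes the first cut in ATF6, fell.

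**Figure D4:**
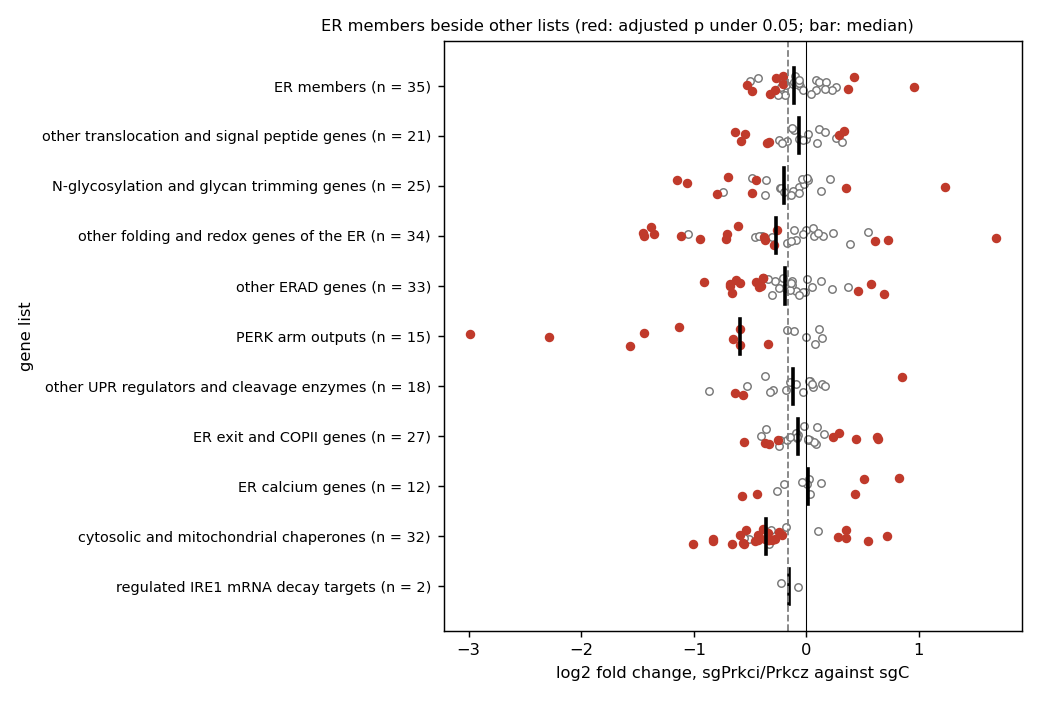
Log2 fold changes of the 35 ER members and of 10 other gene lists, each point a tested gene, red where limma called it, with the list's median as a bar and the median of all genes (-0.17) dashed. The members cluster between -0.53 and 0.42 with Dnajc10 apart at 0.96, while the PERK outputs reach -2.99.

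**Figure D5:**
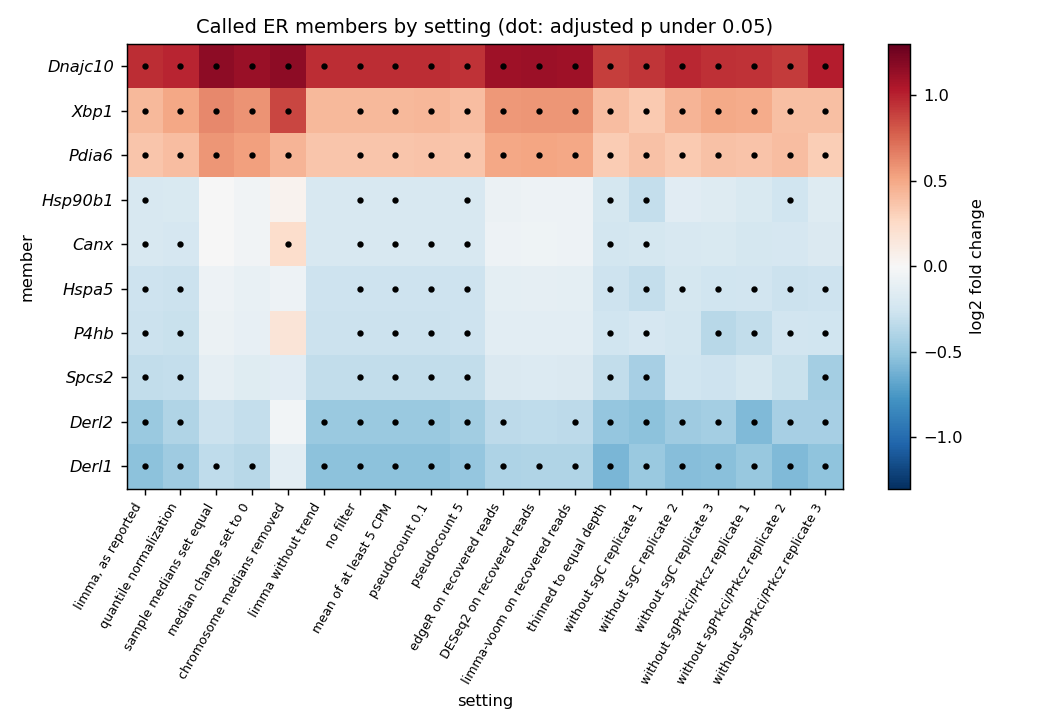
Log2 fold change of the 10 called ER members (rows) under each of 20 settings (columns), with a dot where the adjusted p was under 0.05. The rows of Dnajc10, Xbp1 and Pdia6 stay red throughout, and the pale rows of Hsp90b1, Canx and P4hb turn sign when chromosome medians are removed.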

How the data were processed

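The authors deposited 1 table of CPM values for 20756 genes by Ensembl identifier, from 3′ tag libraries (QuantSeq FWD, 200 ng of RNA, single reads of 75 bases, per the labels' protocols) on build GRCm38, per the submitters' processing notes. Which aligner, counter and strand setting they used, and whether molecular identifiers were used, is not given in the sources used here. Columns were matched to samples by title, with 0 other value columns. Symbols and coordinates came from GENCODE M21, with 20675 identifiers matched. The CPM values were whole multiples of what 1 read is worth for 100% of values (relative tolerance 1e-06), so reads were recovered. Pairs of replicates differed beyond sampling noise (chi-square per degree of freedom 1.56 to 3.40). One read was worth 0.328 to 0.648 CPM.

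The test was limma 3.58.1 (R 4.3.3) with trend and robust estimation on log2(CPM + 1), which understates changes of low genes, over genes that reached 1 CPM in 3 or more of 6 samples. A gene was called at a Benjamini-Hochberg adjusted p under 0.05 over all 12207 genes. Fold changes are sgPrkci/Prkcz minus sgC. Alternatives, 19 in all, covered scaling, filters, pseudocounts of 0.1 and 5, edgeR 4.0.16 and DESeq2 1.42.0 on recovered reads (edgeR called 3959 genes), voom, thinning, chromosome medians and each sample left out. The pipeline was tested on simulated data. Full values are given for called members and for those with a fixed role in the pathway. From other lists at most 4 called genes with the smallest adjusted p are named, besides Ddit3, Bloc1s1 and Hgsnat, which were chosen after their values were seen, and a gene that this rule selects is not reported here. The members and lists were chosen with earlier results of these data known. The genes within 5000000 bases and the split at 50 CPM were added after the data were seen.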

Additional observations from a re-analysis of the deposited data

How the results depend on the processing

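The counts of members, 3 up and 7 down, and their median of -0.11 depended on the scaling. The median was -0.039 with quantile normalization. With sample medians set equal the members were 7 up and 1 down (median 0.093, with 3924 of all 12207 genes called). With the median change set to 0 they were 6 and 1 (0.055). With chromosome medians removed in limma they were 6 and 0 (0.090), with 0 down also at an unadjusted p under 0.05. The edgeR fit, without that removal, had 2 members down. Without the trend they were 1 and 2 (2890 genes). On recovered reads they were 6 and 2 with edgeR (0.030), 6 and 2 with voom (0.030; 3813 genes), and 5 and 1 with DESeq2 (0.039), which called 2726 genes in all against 4300. Leaving out 1 library at a time gave 3079 to 3978 genes, 3 to 4 members up, 3 to 9 down and a median of -0.20 to -0.070. The fewest falls came without sgC replicate 2 (3), then without sgC replicate 3 and without sgPrkci/Prkcz replicate 1 (4 each). Signs turned with chromosome medians removed for Hsp90b1 (0.043), P4hb (0.17) and Canx (0.23). Among the 7 fallen members, those not called in all 6 leave-one-out fits were P4hb, not called without sgC replicate 2 (limma, adjusted p = 0.0557), Hsp90b1, called only without sgC replicate 1 or sgPrkci/Prkcz replicate 2, Spcs2, called only without sgC replicate 1 or sgPrkci/Prkcz replicate 3, and Canx, called only without sgC replicate 1. Creld2 and Herpud1 were called lower without sgC replicate 1 or sgPrkci/Prkcz replicate 3. Sec61b was called higher without sgC replicate 3 (0.36; limma, adjusted p = 0.0441). The cause was not tested. No paired analysis was possible because the sample titles share no replicate numbers between the genotypes. Pdia5, with 3 to 33 reads a library, had the widest interval of the members (-1.25 to 0.24).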

Other observations

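The counts here stand beside 11.4% of all genes up and 23.8% down (17.4% and 14.4% after centring, which sets the all-gene median change to 0), and no difference from them was tested. Of 27 tested ER exit and COPII genes 5 rose and 4 fell (7 and 1 after centring; median log2 fold change -0.08). Ergic1, of the intermediate compartment, rose from 102 ± 3.0 to 159.6 ± 6.92 CPM (0.64), Mcfd2, a cargo receptor subunit, from 44.3 ± 4.05 to 68.9 ± 6.89 CPM (0.63), and Kdelr1, which returns escaped chaperones, from 168 ± 18.4 to 227 ± 10.1 CPM (0.44; limma, adjusted p = 5.97e-04). Mia2 fell (-0.37), a call that did not survive centring (limma, adjusted p = 0.107). Of 12 ER calcium genes 3 rose and 2 fell (median 0.01). After centring limma called 4 higher and 0 lower, and edgeR, run without that centring, called 1 lower. The ER calcium sensor Stim2 (0.51) and the calcium channels Itpr1 (0.83) and Itpr3 (0.43) rose, and Itpr2 (-0.44) fell.

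Of 32 tested cytosolic and mitochondrial chaperones 5 rose and 20 fell (5 and 11 after centring; median -0.36). Hspa9, the mitochondrial HSP70, fell from 718 ± 90 to 355 ± 30.5 CPM (-1.01; limma, adjusted p = 3.64e-10), Cct5, of the cytosolic folding ring, from 347 ± 15.2 to 194 ± 9.04 CPM (-0.83), and Hspd1 (-0.66) and Hsp90aa1 (-0.56) fell too. Of 6 mRNAs known as targets of IRE1 decay 2 were tested, Bloc1s1 (-0.08) and Hgsnat (-0.23), and neither passed the test (limma, adjusted p = 0.821 and 0.525).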
